A study of Homo sapiens with 15 samples.

Results

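The regions described here are the highly methylated domains (HMDs) of HCT116 cells, a human colorectal carcinoma line, that were still HMDs after UHRF1 was knocked down. An HMD is a stretch in which nearly every CpG is methylated in most cells, and a partially methylated domain (PMD) is a stretch in which methylation is incomplete and uneven. The members were chosen by measured values, as autosomal base pairs that the authors had classed as HMD in the Baseline lists of the 3 shUHRF1 clones Cl.3, Cl.6 and Cl.9 and again in the Knockdown lists of both Cl.3 and Cl.6, merged into pieces of 5 kb or more. This gave 8516 surviving pieces of 235.3 Mb in all, among 49960 pieces and 1462 Mb of HMD shared by the 3 clones at Baseline. Survivors were thus 17.0% of the pieces and 16.1% of the length. The rest of the shared Baseline HMDs was kept in Cl.3 only (21218 pieces, 628.4 Mb), kept in Cl.6 only (173 pieces, 1.58 Mb) or lost in both clones (20053 pieces, 597.2 Mb), and the last of these is called lost HMD below.

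Whole-genome bisulfite sequencing had been run on 15 libraries of HCT116 cells in which doxycycline switches on a short hairpin RNA (shRNA) that targets UHRF1 or DNMT1. The shUHRF1 arm held 3 clones, each grown from a single cell, and the shDNMT1 arm held R1 and R2, which are 2 uncloned bulk populations. Libraries were made from every population at Baseline (day 14, no doxycycline), at Knockdown (day 14, under doxycycline at 10 ng/mL) and at Recovery (day 28, with 14 days of doxycycline followed by 14 days off it). All groups thus carried an integrated shRNA, and the shRNA target, the use of clones or bulk cells and the set of libraries counted together cannot be told apart. Recovery differs from Baseline by 14 days of culture as well, since no untreated library here is from day 28. Neither UHRF1 nor DNMT1 was measured in these files. The libraries held 317670080 to 593644411 reads at CpGs, the 3 of Cl.9 being the deepest, and the median CpG of a survivor had 11 to 21 reads. Methylation of a region (mC) is the percent of all its CpG reads that were methylated, and counting error on the mC of all survivors together was at most 0.0133 points in any library (95% interval).

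DNMT1 copies CpG methylation onto the new strand after replication, and UHRF1 recognises the newly replicated, hemimethylated sites and brings DNMT1 to them. A CpG that is not copied loses methylation by dilution as cells divide, unless another enzyme restores it. Bodies of transcribed genes carry methylation of histone H3 at lysine 36, a mark read by the de novo methyltransferases, and PMDs are known as gene-poor, late-replicating stretches that lose methylation with cell division, above all at isolated CpGs flanked by A or T (solo-WCGW CpGs).

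Stretches of the longest survivors show what such CpGs look like. The 3 longest that held at least 50 CpGs were 259.0 kb over ACACA (chr17:37098448-37357435), 256.1 kb over ARID2 and SCAF11 (chr12:45732345-45988417) and 239.5 kb over PIBF1 (chr13:72783533-73023003). ACACA is the acetyl-CoA carboxylase that starts fatty acid synthesis, ARID2 is a subunit of a SWI/SNF chromatin remodelling complex, and PIBF1 is a centrosomal protein. Each stretch is 30 bases of the plus strand of hg38 inside an intron, with CpGs in capitals. The solo-WCGW stretches are shown for their isolation and the dense ones for their close spacing in the same survivors.
ACACA solo-WCGW, chr17:37310153-37310182: caagcaagagctgaCGtgctaaggcttgga
ACACA dense, chr17:37227629-37227658: gaggcCGaggCGtgCGgatcaCGaggtCGa
ARID2 solo-WCGW, chr12:45791996-45792025: taatcaattttattCGtgttttctgataaa
ARID2 dense, chr12:45869290-45869319: caggCGtgCGccacCGtgccCGgcCGCGat
PIBF1 solo-WCGW, chr13:72802758-72802787: catcagcataaagaCGatatttaaagccag

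The isolated CpG of ACACA was methylated in 53 of 56 reads in Cl.9 at Baseline and in 29 of 43 at Knockdown, which is 67.4% (95% Wilson interval 52.5 to 79.5). At Knockdown it was methylated in 22 of 42 reads in R1 (52.4%, interval 37.7 to 66.6) and in 19 of 39 in R2 (48.7%, interval 33.9 to 63.8). The isolated CpG of ARID2 kept less, with 34.0% of 47 reads in Cl.9, 12 of 30 reads in R1 and 34.0% of 47 in R2 at Knockdown, against 93.8% to 97.0% in the same populations at Baseline. The isolated CpG of PIBF1 kept 39 of 50 reads in Cl.9, 57.8% of 45 in R1 and 56.5% of 46 in R2. The dense stretches were each read at a single CpG. At that of the ACACA stretch (chr17:37227643), 10 of 11 reads were methylated in Cl.9, 7 of 9 in R1 and 13 of 16 in R2 at Knockdown. At that of the ARID2 stretch (chr12:45869304) the numbers were 10 of 12, 14 of 15 and 17 of 19. These single CpGs of the dense stretches thus read higher than the isolated CpG of the same survivor in all 3 populations, but they rest on 9 to 19 reads each. Both dense stretches resemble the common Alu repeat, so reads placed there may come from other copies, which was not tested.

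The rule itself fixed the level of the survivors in the lists it read, and those values are given as a description only. At Knockdown the median survivor stood at 86.8% mC in Cl.3 and 81.3% in Cl.6. The authors required a mean mC of 80% over a whole HMD, so a piece cut from one could fall below it. This was so for 16 survivors in Cl.3 (the lowest at 77.6%) and 1398 in Cl.6, which is 16.4% of them (the lowest at 68.0%). Pieces kept in Cl.3 only, just outside the rule, had a median of 75.6% in Cl.6 at Knockdown, with a 95th percentile of 79.3%. At the length limit, the 250 pieces of 5 to 5.5 kb and the 262 pieces of 4.5 to 5 kb left out by it were close, with 66.9% and 67.4% mC in Cl.9, 53.9% and 54.3% in R1, and 52.8% and 52.9% in R2 at Knockdown.

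In the other 3 populations hardly any of the shared Baseline HMDs, survivors or not, was classed as HMD at Knockdown. In Cl.9, the clone whose Knockdown list the rule did not use, 0.0108% of the survivor length was still classed as HMD and 94.4% as PMD, beside 0.00126% of lost HMDs classed as HMD. In the shDNMT1 bulk populations the HMD share was 0.00130% in R1 and 0.00109% in R2, beside 0.00325% and 0.00442% of lost HMDs, with 83.7% and 85.3% of survivors in PMDs. Of 8516 survivors, 0.0939% had 80% mC or more in Cl.9 at Knockdown, 0.0235% in R1 and 0% in R2, and of lost pieces 0.00499%, 0% and 0%. In the Cl.9 Knockdown list most of the few HMDs lay inside PMDs, so its classes overlap, and classes were called separately in each library.

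In methylation level the survivors still stood above lost HMDs and above pieces kept in Cl.3 only in every library. At Baseline, Knockdown and Recovery their mC was 96.3%, 86.9% and 92.4% in Cl.3, 96.9%, 81.5% and 91.6% in Cl.6, and 95.2%, 67.8% and 83.3% in Cl.9. In the bulk populations it was 95.8%, 56.8% and 95.04% in R1 and 95.9%, 55.7% and 95.1% in R2. Lost HMDs were lower at each stage, at 87.9%, 51.6% and 66.3% in Cl.9, 89.6%, 47.4% and 88.1% in R1, and 89.6%, 46.5% and 88.2% in R2. Pieces kept in Cl.3 only were between them, for example 92.7%, 60.9% and 76.9% in Cl.9.

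**Figure D1:**
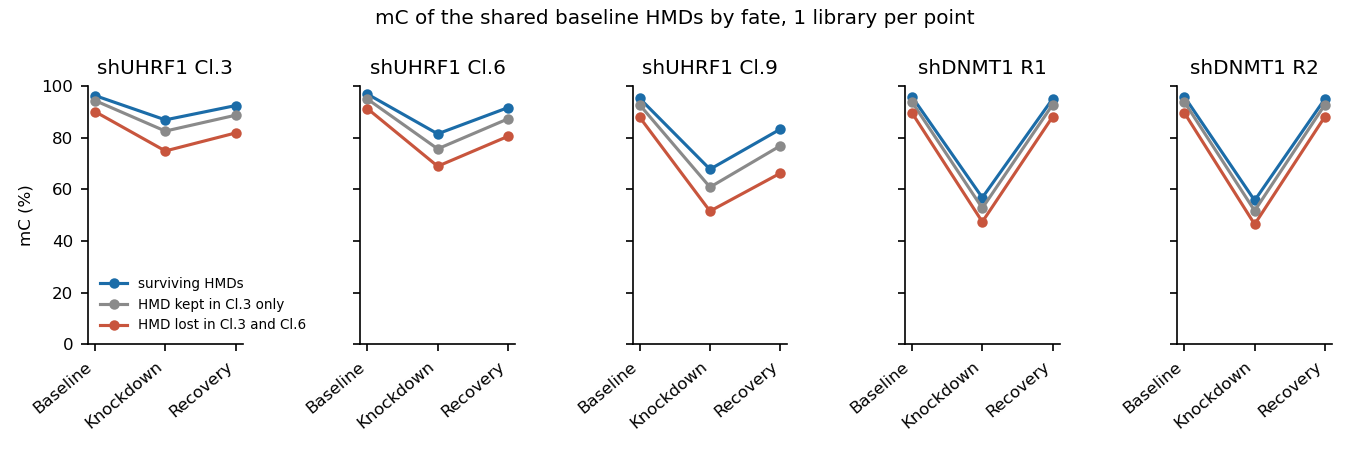
mC in percent (y axis, from 0 to 100) at Baseline, Knockdown and Recovery (x axis) for each of the 5 populations, with 1 point per library and 1 line for surviving HMDs, pieces kept in Cl.3 only and lost HMDs. Surviving HMDs are the top line in every panel, and at Knockdown they are at 67.8% in Cl.9, 56.8% in R1 and 55.7% in R2.

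The rule read the Baseline list of Cl.9 but no Knockdown list of Cl.9, R1 or R2. In these populations the survivors lost fewer points of mC at Knockdown than lost HMDs did. In Cl.9 they changed by -27.4 points and lost HMDs by -36.3 points, a difference of 8.91 points in 1 clone, for which there is no replicate. In the bulk populations they changed by -39.0 points in R1 and -40.2 points in R2, a mean change of -39.6 ± 0.81 (SD, n = 2), against -42.6 ± 0.70 in lost HMDs. The difference was 3.11 points in R1 and 2.95 points in R2 (3.03 ± 0.11, SD, n = 2), larger than its spread, with an exact two-sided sign-flip p = 0.5, the smallest that 2 populations allow. As a share of their Baseline level, survivors kept 71.2% in Cl.9 and 58.7% ± 0.83 in bulk (SD, n = 2), and lost HMDs kept 58.7% and 52.4% ± 0.76. The same sign held on each of the 22 autosomes, with differences of 7.65 to 9.54 points in Cl.9, 2.41 to 4.41 in R1 and 2.35 to 3.98 in R2. These autosomes share their libraries and are not replicates.

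The size and the sign of this difference depend on the scale, and the survivors began higher. On the log odds scale the survivors fell further than lost HMDs, by a difference of -0.325 in Cl.9 and -0.617 in bulk. A comparison that matched pieces in 1-point bins of Baseline mC, measured in the populations of the other shRNA, was added after seeing the data. In it the survivors fell by less on both scales, by 10.7 points and 0.363 log odds in Cl.9 and by 7.22 points ± 0.048 (SD, n = 2) and 0.235 log odds in bulk. In the bin at 96% to 97%, for example, the mC of R1 at Knockdown was 57.0% in 3483 survivors and 49.4% in 218 lost pieces.

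Survivors varied among themselves. In Cl.9 at Knockdown the lowest piece was at 47.2% mC, the median at 67.6% and the highest at 90.3%. In R1 the median was 57.0% and in R2 55.9%. Over the 8345 survivors with at least 50 CpGs, the change at Knockdown in R1 and in R2 correlated with Pearson's r of 0.845, and that of Cl.9 with that of bulk with r of 0.439. These correlations run across pieces that share libraries and sequence, and are a description.

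The longest survivors lost about as much as survivors overall. The ACACA survivor (2407 CpGs) had 96.9%, 87.7% and 93.4% mC at Baseline, Knockdown and Recovery in Cl.3, 97.4%, 82.3% and 92.8% in Cl.6, 96.1%, 68.2% and 84.1% in Cl.9, 96.7%, 56.1% and 95.8% in R1, and 96.6%, 56.2% and 96.0% in R2. Every Knockdown library was thus below every Baseline and Recovery library of its own population, and the bulk populations were lowest. The 7 next longest after the first 3 lay over ZCCHC7, PDS5B (a cohesin regulator), MFSD4B and REV3L (the catalytic subunit of the translesion polymerase zeta), FSTL5, HERC1, R3HDM1 and SCAI. Over all 10, the change at Knockdown was -30.1 to -24.8 points in Cl.9 and -40.5 to -35.3 points in bulk.

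The extremes of bulk loss differed in sequence, but over all 8345 survivors with at least 50 CpGs the relation was weak. Across these pieces the bulk change correlated with CpGs per kb at r = -0.216 and with GC content at r = -0.249, and the change of Cl.9 with CpGs per kb at r = -0.0485. Among survivors with at least 50 CpGs, the 835 pieces with the largest bulk loss had a median of 16.8 CpGs per kb and 45.8% GC, and the 835 with the smallest loss had 12.3 CpGs per kb and 41.4% GC. The share of low-density CpGs, those with no other CpG within 20 bp, was 42.2% and 47.8% in these groups. The 5 largest losses, with changes of -60.5 to -56.4 points, included short pieces over PLEKHH3 (chr17:42668331-42673871), SCAMP4 and ADAT3 (chr19:1906226-1912854), DAZAP1 (chr19:1416005-1428885) and PLK3 (chr1:44801577-44806641), which held 33.0 to 47.6 CpGs per kb. The fifth lay outside coding genes. The 5 smallest losses, with mean changes of -26.5 to -20.2 points, were pieces over PTPN20 and MFSD14B and 3 without a coding gene. They rest on 58 to 349 reads per library, and R1 and R2 differed in them. The PTPN20 piece went from 94.8% to 86.8% mC in R1 and from 98.6% to 66.2% in R2. The MFSD14B piece went from 96.8% to 67.4% in R1 and from 93.1% to 69.6% in R2.

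In survivors the fall at Knockdown grew with the distance to the nearest CpG, up to 50 to 74 bp in Cl.9 and R1. In survivors, CpGs with a neighbour 2 to 4 bp away changed at Knockdown by -13.0 points in Cl.9, -29.1 in R1 and -30.6 in R2, and in lost HMDs by -21.1, -34.3 and -35.7. At 50 to 74 bp the changes in survivors were -37.0 points in Cl.9 and -44.8 in R1, against -42.8 and -45.1 in lost HMDs. At 150 bp and more, R1 changed by -42.0 points in both. The difference between survivors and lost HMDs in bulk was thus larger in points at closely than at widely spaced CpGs. At high-density CpGs the difference between survivors and lost HMDs was 9.75 points in Cl.9 and 4.91 in bulk, and at low-density CpGs it was 6.67 and 0.834. As a share of Baseline the classes were closer. Bulk survivors and lost HMDs kept 64.1% and 57.7% at high-density CpGs and 53.7% and 48.5% at low-density ones. In Cl.9 they kept 80.5% and 69.2% at high-density CpGs and 63.3% and 51.5% at low-density ones, where the gap was no smaller.

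**Figure D2:**
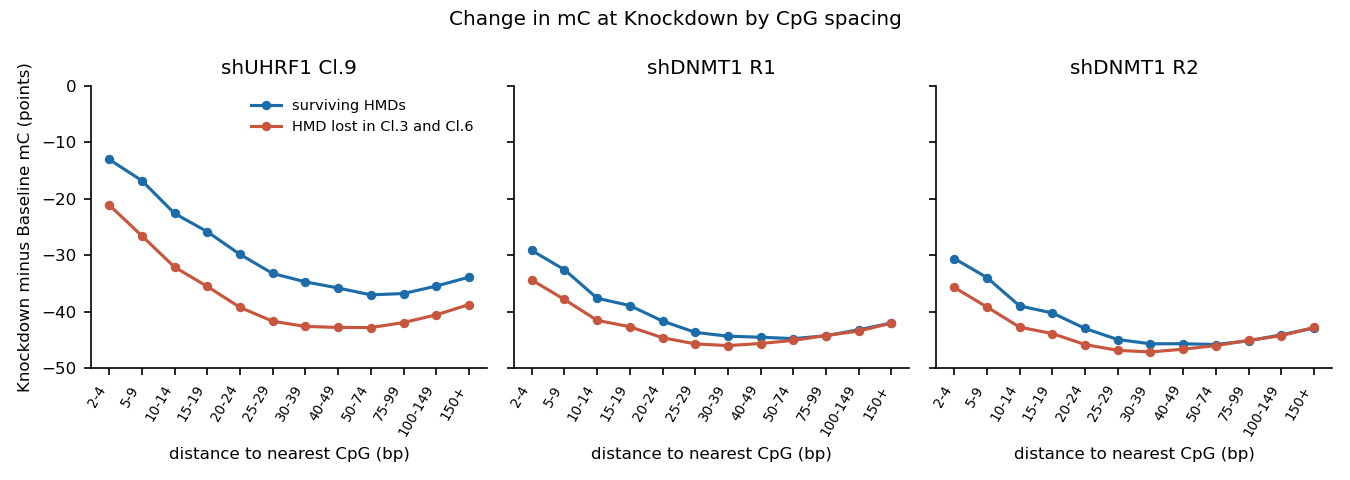
Change in mC from Baseline to Knockdown in points (y axis, with 0 at the top) against the distance from a CpG to its nearest CpG in bp (x axis, bins in order), for surviving and lost HMDs in Cl.9, R1 and R2. The lines are apart at 2 to 4 bp, where R1 changed by -29.1 points in survivors and -34.3 in lost HMDs, and meet in R1 at 150 bp and more, where both changed by -42.0.

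At solo-WCGW CpGs the sign turned in the bulk populations. Survivors changed there by -48.9 points and lost HMDs by -45.1, a difference of -3.81 ± 0.098 points (SD, n = 2), larger than its spread (exact two-sided sign-flip p = 0.5, the smallest possible). In Cl.9 the difference was 0.244 points. The solo-WCGW CpGs of survivors began at 94.1% mC in R1 and in R2, fell to 45.6% and 44.7%, and returned to 92.6% in both. In Cl.9 they went from 92.5% to 47.2% and then to 66.5%. As a share of Baseline, those of survivors still kept more in bulk, 48.0% against 43.4%, so this sign too depends on the scale.

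As a ratio to the mean fall, the preference of loss for isolated CpGs was stronger in survivors. It is given as the fall at low-density CpGs less the fall at high-density ones, over the mean fall of both, and uses CpGs that 5 or more reads covered in each library. In survivors it was 0.582 in Cl.9, 0.259 in R1 and 0.248 in R2, and in lost HMDs 0.360, 0.144 and 0.137. The mean fall, by which the ratio divides, was smaller in survivors. In Cl.9 low- and high-density CpGs changed by -34.3 and -18.5 points in survivors and by -41.3 and -28.2 in lost HMDs. As the share of Baseline kept, the gap between these CpG classes was no larger in survivors in Cl.9, but larger in bulk. For the ratio, values of the other clones follow. In survivors of Cl.3 and Cl.6, whose Knockdown lists chose the members, the ratio was 0.731 and 0.614. By this ratio Cl.9, the clone whose Knockdown list the rule did not read, was above both bulk populations.

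At Recovery the survivors of the clones had regained part of the loss and those of the bulk populations nearly all of it. Survivors of the clones differed from Baseline by -7.01 ± 4.30 points (SD, n = 3) at Recovery, with -3.87 in Cl.3, -5.25 in Cl.6 and -11.9 in Cl.9. Lost HMDs differed by -13.6 ± 7.13 points. The difference was 4.38, 5.49 and 9.74 points (6.54 ± 2.83, SD, n = 3), positive in 3 of 3 clones, with an exact two-sided sign-flip p = 0.25, the smallest that 3 populations allow. On the log odds scale its sign turned, to -0.0814, and with matched Baseline it was 4.98 ± 1.71 points (SD, n = 3) and 0.371 log odds. Recovery libraries were not read by the rule, but the Baseline lists of all 3 clones were, as were the Knockdown lists of Cl.3 and Cl.6.

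The share of the Knockdown loss that was regained uses, in Cl.3 and Cl.6, the Knockdown values that chose the members. In Cl.9 it uses a Baseline whose list the rule read. The bulk libraries alone lie wholly outside the rule. Survivors regained 58.9% in Cl.3, 65.9% in Cl.6 and 56.6% in Cl.9 (60.4% ± 4.84, SD, n = 3). Pieces kept in Cl.3 only regained 54.2% ± 5.34 and lost HMDs 46.0% ± 5.73. In Cl.9 the shares were 56.6% in survivors, 50.2% in pieces kept in Cl.3 only and 40.4% in lost HMDs. In bulk the survivors regained 97.9% ± 0.0024 and lost HMDs 96.5% ± 0.12 (SD, n = 2). At Recovery bulk survivors differed from Baseline by -0.801 points in R1 and -0.824 in R2, and the difference from lost HMDs was 0.661 ± 0.044 points (SD, n = 2; exact two-sided sign-flip p = 0.5, the smallest possible). That difference too turned sign on the log odds scale, to -0.0389, and was 0.444 points and 0.0765 log odds with matched Baseline.

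By class, 92.7% of the survivor length was HMD again in Cl.9 at Recovery, against 41.5% of the length kept in Cl.3 only and 2.67% of lost HMDs. In Cl.3 and Cl.6, where by the rule survivors were HMD at Knockdown too, 99.96% and 99.95% of their length was HMD at Recovery, and 76.2% and 72.0% of lost HMDs had become HMD again. In R1 and R2 the survivor share was 99.96% and 99.6%, against 86.9% and 87.4% of lost HMDs. Part of this gap was there at Baseline, since the rule did not read the bulk lists. At Baseline 99.965% of survivors in R1 and 99.968% in R2 was HMD, against 92.0% and 93.6% of lost HMDs. By piece, 85.2% of survivors had 80% mC or more in Cl.9 at Recovery, 23.6% of pieces kept in Cl.3 only, and 1.09% of lost pieces.

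For single pieces, edgeR's quasi-likelihood test was run on methylated and unmethylated reads, with the population as a block and Benjamini-Hochberg adjusted p below 0.05 as the threshold. At bulk Knockdown 8515 of 8515 tested survivors were lower than at Baseline, and so were 100% of all 49929 pieces tested, with 0% higher, so this count says nothing particular about survivors. At bulk Recovery 4305 of 8515 survivors were lower than at Baseline, against 53.1% of all pieces. Survivors called higher numbered 0, against 0.00801% of all pieces. In edgeR 4968 survivors had an unadjusted p under 0.05, and limma called 4100 survivors lower and 9 higher. limma called 20699 of all 49929 pieces lower, a smaller share than of survivors, so whether survivors were called more or less often than all pieces depended on the tool. The median log2 odds ratio was -0.28 in survivors and -0.25 over all pieces. With all 15 libraries in 1 fit, edgeR called 0 survivors at bulk Recovery and 0 of all 49908 pieces. Among survivors 174 had an unadjusted p under 0.05 in that fit. Leaving out R1 or R2 left 1 bulk population, so calls are not given. The median log2 odds ratio in survivors was then -0.28 without R1 and -0.27 without R2, and over all pieces -0.24 and -0.25. At the clones' Recovery 8506 of 8515 survivors were lower, against 99.9% of 49917 pieces and 0% higher, with medians of -1.57 and -1.51. Without Cl.6 25 of them were called, and 231 of all 49923 pieces tested.

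At Knockdown mC stepped up at the borders of survivors, with smaller slopes on both sides. Of their ends, 15047 lay inside a shared Baseline HMD and 1985 at one of its ends, so most borders were set by the Knockdown lists of Cl.3 and Cl.6. Of the 31864 shared HMDs, 6902 (21.7%) held a survivor, 2086 survived over 90% or more of their length, and 10954 were lost whole. Over 2851 borders with room on both sides, mC at Knockdown in Cl.9 was 61.0% at 9.75 kb outside, 63.3% at 0.25 kb outside, 66.7% at 0.25 kb inside and 67.9% at 9.75 kb inside. In R1 the values were 53.3%, 55.0%, 57.0% and 58.6%, and in R2 52.6%, 54.0%, 55.7% and 57.5%. The same borders showed at Baseline, at 93.3% just outside and 95.5% just inside in R1, 93.4% and 95.5% in R2, and 92.7% and 94.7% in Cl.9. In bulk this step at the border was about as large at Baseline as at Knockdown, and in Cl.9 it was smaller at Baseline. Much of the Baseline step was a dip just outside the border. At 2.75 kb outside, Baseline mC was 94.9% in R1, 94.9% in R2 and 94.0% in Cl.9, above the values at 0.25 kb outside. At Knockdown there was no such dip in R1, with 53.5% at 2.75 kb outside. From 9.75 kb outside to 9.75 kb inside, R1 rose less at Baseline, from 94.4% to 96.0%. Survivor borders thus showed as a rise of mC in populations whose Knockdown lists the rule did not read, at Baseline as well as at Knockdown.

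**Figure D3:**
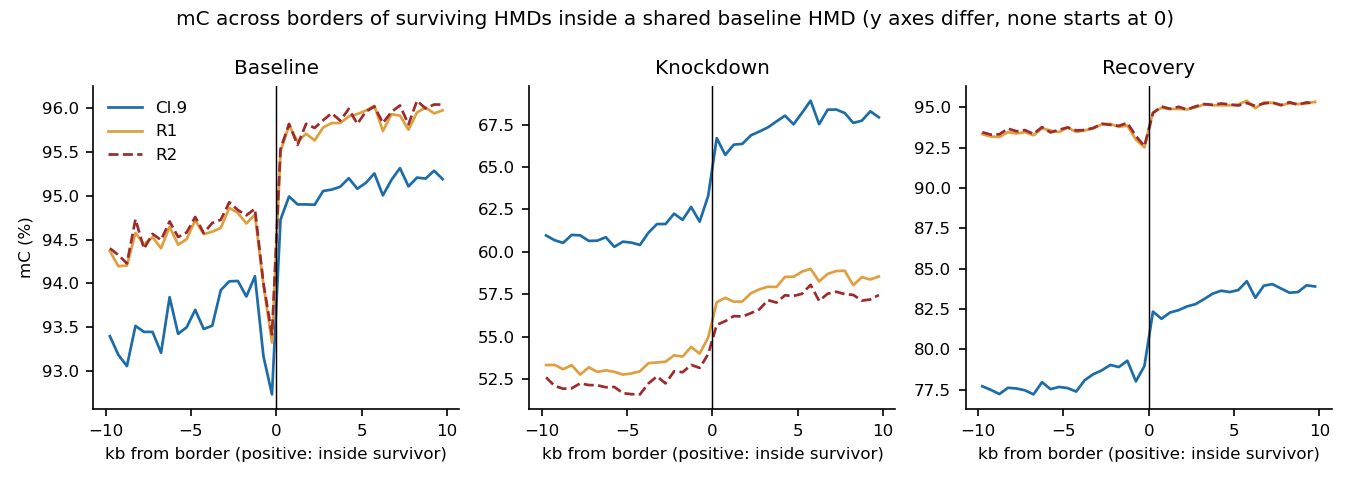
mC in percent (y axes, which differ between panels and do not start at 0) against the distance from a survivor's border in kb (x axis, positive inside the survivor), in 500-bp bins over 2851 borders, for Cl.9, R1 and R2 at each stage. At Knockdown mC rises from 61.0% to 67.9% in Cl.9 and from 53.3% to 58.6% in R1 across the window.

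The survivors were mostly gene bodies. Coding genes covered 86.0% of their length, against 59.3% of pieces kept in Cl.3 only and 42.2% of lost HMDs. The difference between survivors and lost HMDs held on 22 of 22 autosomes, at 26.6 to 51.4 percentage points. Exons took 8.83% of survivors and 3.32% of lost HMDs. Coding promoters (1 kb upstream to 100 bp downstream of the start) were rarer, at 0.326% and 0.577%, and coding start sites numbered 1.94 and 3.93 per Mb. A coding gene was absent from 14.7% of survivors (1253 pieces) and from 44.02% of lost pieces. These compositions are descriptions of lengths.

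Base composition differed less. GC content was 41.3% in survivors and 41.9% in lost HMDs, and was higher in survivors on 4 of 22 autosomes. Survivors had 11.8 CpGs per kb and lost HMDs 9.69, with an observed to expected CpG ratio of 0.276 and 0.220, and CpG density was higher in survivors on 17 of 22. Low-density CpGs were 48.8% of survivor CpGs and 56.4% of those of lost HMDs, and solo-WCGW CpGs 9.83% and 12.54%. The difference in loss at Knockdown was about as large within bins of CpGs per kb, at a weighted mean of 8.90 points in Cl.9 and 3.27 in bulk. Exons, introns and sequence outside coding genes within survivors changed by -28.1, -27.4 and -27.3 points in Cl.9 and by -39.4, -38.9 and -39.2 in R1. Promoters within survivors changed by -28.3 points in Cl.9, -46.3 in R1 and -47.4 in R2.

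Along genes the surviving share was larger in the body than in flanks outside coding genes. The flanking windows left out base pairs inside any coding gene, so flanks and body were not counted alike. Over 11207 coding genes of 20 kb or more, the share of shared Baseline HMD length that survived was 6.90% at 15 to 20 kb upstream and 9.24% in the last 5 kb before the start. It was 24.2% in the first of 10 equal parts of the gene, 25.8% in the next and 20.7% in the last. It then fell to 19.3% in the first 5 kb downstream and 8.80% at 15 to 20 kb. The share that was lost ran the other way, from 48.4% upstream to 28.4% to 30.8% in the body and 46.3% downstream.

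**Figure D4:**
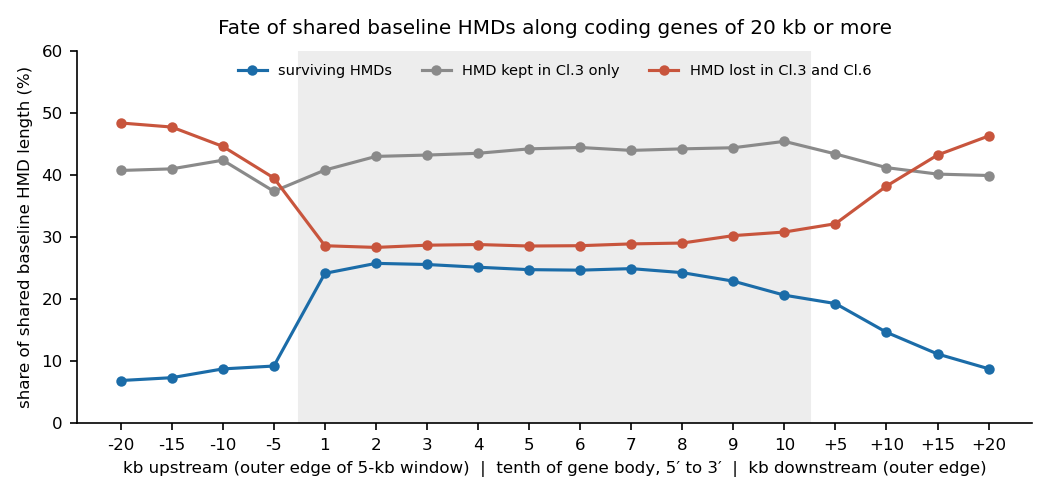
Share in percent of shared Baseline HMD length that survived, was kept in Cl.3 only or was lost (y axis, from 0) in 5-kb windows upstream, 10 equal parts of the body (shaded) and 5-kb windows downstream (x axis) of 11207 coding genes of 20 kb or more. The surviving share is 9.24% in the window before the start, 24.2% in the first part of the body and 8.80% in the farthest downstream window. Base pairs inside any coding gene are left out of the flanking windows.

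The shortest and the longest genes had the smallest share in survivors. At least 50% of the body was in survivors for 5.27% of coding genes under 5 kb, 13.6% of those of 5 to 20 kb, 24.4% at 20 to 50 kb, 26.4% at 50 to 100 kb, 23.2% at 100 to 200 kb and 6.33% at 200 kb and more. Of 19111 autosomal coding genes, 6027 touched a survivor and 3375 (17.7%) had at least 50% of the body in survivors, which is 22.1% of the 15253 with at least 50% in shared Baseline HMDs. In lost HMDs the number was 3845 (20.1%). Survivors made up the least of the shared length on chromosomes 4 (9.62%) and 6 (11.9%) and the most on chromosomes 17 (25.3%) and 14 (21.8%).

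Gene groups were compared by how many members had at least 50% of the body in survivors, beside 17.7% of all coding genes. These counts are descriptions, and group sizes are small. In the machinery of DNA methylation 11 of 20 genes did, and the median gene had 58.0% of its body in survivors, against 0% over all coding genes. HELLS, a remodeller needed for methylation of repeats, was 97.4% inside, TET1, which oxidises methylcytosine, 93.5%, TDG, the glycosylase that removes its products, 93.2%, and PCLAF, a PCNA partner, 91.7%. The whole body of HELLS went from 85.2% to 59.9% mC at Knockdown in Cl.9 and from 86.1% to 51.7% in R1, with 75.5% and 83.9% at Recovery. DNMT1 was itself 60.3% inside survivors and 22.4% inside lost HMDs, and UHRF1 21.7% and 0%. The DNMT1 body stood at 84.5%, 56.6% and 71.7% mC in Cl.9 at the 3 stages, and at 84.98%, 46.9% and 85.7% in R1.

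The writers, readers and erasers of methylation at lysine 36 of histone H3 had 8 of 14, with a median of 54.9% of the body. The methyltransferases SETD2, ASH1L and NSD1 were 98.7%, 98.3% and 97.1% inside, and the demethylase KDM2A 96.3%. The ASH1L body stood at 93.0% mC at Baseline, 70.8% at Knockdown and 84.5% at Recovery in Cl.9, and at 94.2%, 58.7% and 93.9% in R1. Of the factors of DNA replication 16 of 29 had at least 50% inside, among them ORC3 of the origin recognition complex (98.5%), the initiation factor MCM10 (97.8%) and the clamp loader subunits RFC1 (97.0%) and RFC2 (95.9%). The MCM10 body fell from 87.2% to 58.7% mC in Cl.9 and from 88.7% to 51.4% in R1. The median over replication genes was 54.4%. Mismatch repair had 4 of 8 and a median of 42.5%, with PMS2, for example, at 74.9%. PMS2 has near-identical pseudogene copies, so its reads are placed with less certainty.

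Other groups were nearer to the figure for all genes but still above it, at 26.0% to 38.5%. The proteasome had 10 of 26 (PSMD1, PSMC6, PSMA3 and PSMA6 leading), Mediator and the general transcription machinery 8 of 21 (MED13, MED1, SUPT6H and POLR2B), H3K9 and Polycomb repression 7 of 21 (SUZ12, RNF2, SUV39H2 and CBX5), Wnt signalling 9 of 33 (CSNK1A1, DVL2, AXIN1 and DVL3) and the spliceosome 6 of 22 (PRPF3, PRPF8, PRPF6 and SF3B3). AXIN1, a scaffold of the complex that degrades beta-catenin, was 87.9% inside, with a body at 88.9%, 64.4% and 79.3% mC in Cl.9 and 90.1%, 53.2% and 90.2% in R1. Genes named ZNF, a group added after seeing the data, had 131 of 503 (26.0%), with 44 in lost HMDs.

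Some groups of specialised or short genes had fewer members in survivors. Colon epithelial identity genes had 3 of 23 (KRT20, KLF5 and EPCAM), or 13.0%, not far from the 17.7% of all genes. In lost HMDs 7 had at least 50% of the body, among them CDX1, CDX2, FABP1 and GPA33, beside 20.1% of all genes. KRT20, a keratin of differentiated colonocytes, was 95.7% inside, with 93.8%, 73.2% and 83.4% mC in Cl.9 and 95.7%, 59.5% and 94.9% in R1. Cytosolic ribosomal protein genes, whose median length was 4.54 kb, had 1 of 25 (RPS3), near the 5.27% of all coding genes under 5 kb. Of these 25 genes, 13 had at least 50% of the body in shared Baseline HMDs. Neuronal synapse genes, with a median length of 396 kb, had 0 of 21, beside 6.33% of all coding genes of 200 kb and more. Of these 21 genes, 12 had at least 50% of the body in shared Baseline HMDs. GRIN2B, NLGN1, SHANK1, SHANK2 and SYN2, 5 of the 21, were at least 50% lost, a share near the 20.1% of all coding genes. Olfactory receptor genes had 0 of 16, and none was at least 50% in shared Baseline HMDs. Expression was not measured in these files, and the part of gene length in these counts was not tested.

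**Figure D5:**
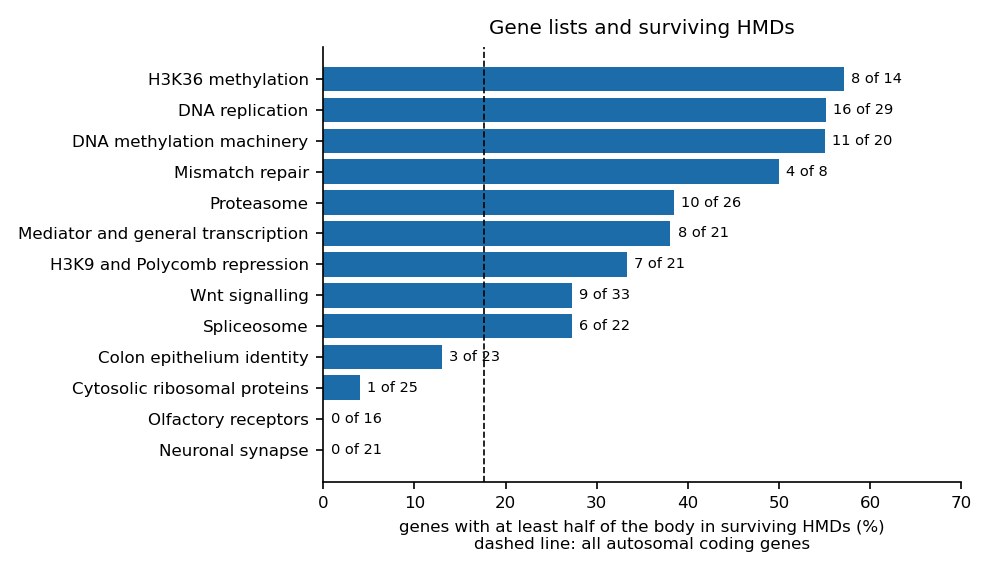
Percent of the genes of each list with at least 50% of the body in surviving HMDs (bars from 0, x axis), with the number of genes beside each bar and a dashed line at 17.7% for all autosomal coding genes. H3K36 methylation (8 of 14), DNA replication (16 of 29) and DNA methylation machinery (11 of 20) have the longest bars, and olfactory receptors and neuronal synapse genes have 0.

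Only 123 coding genes lay wholly inside 1 survivor, and 65 of these overlap another coding gene, as do genes nested in an intron. The longest were THSD1 (39.2 kb), CFAP300 (37.1 kb), SLC16A4 (28.2 kb), FANCD2OS (26.9 kb), LXN (26.8 kb), OMG (25.5 kb), GP6 (24.6 kb), ASB14 (24.3 kb), TICAM2 (24.0 kb) and HORMAD1 (22.8 kb). OMG, which encodes a myelin glycoprotein, stood at 96.8%, 70.1% and 85.5% mC in Cl.9, 97.3%, 58.0% and 96.5% in R1, and 97.6%, 58.5% and 97.1% in R2. HORMAD1, a meiotic chromosome protein, stood at 94.7%, 70.4% and 81.9% in Cl.9, 94.9%, 59.6% and 94.5% in R1, and 94.4%, 54.3% and 94.1% in R2. THSD1 fell furthest of the 10 in Cl.9, from 91.7% to 59.4%.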

How the data were processed

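Reads had been aligned to hg38 with the Meth10X pipeline, per the labels, and the authors deposited for every CpG and library the counts of methylated and of all reads, unfiltered. They also deposited lists of classed domains, in which PMDs, LMRs and UMRs came from MethylSeekR and HMDs were the remainder (bedtools 2.25.0) with a mean mC of at least 80%. The processing notes of the submitters name hg38 and bedtools, and all 27852739 autosomal CpG positions were checked to be CpGs of hg38. LMRs and UMRs can lie within PMDs. Repeat masking, duplicate removal and sequence variants were not given in the sources used here.

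The members and the gene lists were chosen with earlier results of these data known. mC was summed methylated reads over summed reads, without a coverage minimum. Genes were those of GENCODE release 44. Named pieces were the 10 longest survivors and the 5 with the smallest and the largest bulk loss among those with at least 50 CpGs. Named genes were the shRNA targets, the 10 longest coding genes wholly inside 1 survivor and, of each list, up to 4 with most of the body in survivors. Some genes with at least 50% in lost HMDs were named in addition, and some genes that the rule would name are not reported here.

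Values over populations were tested by exact two-sided sign-flip permutation (smallest p 0.25 for 3 clones and 0.5 for 2 bulk populations, so none could pass 0.05). Pieces that held 5 CpGs and 50 reads or more in each library were tested with edgeR 4.0.16 (R 4.3.3) on the counts, within each shRNA, with the population as a block. limma 3.58.1 on log2 ratios with a pseudocount of 1 was an alternative. The block rests on the labels, which name the same clone or bulk population at each stage. Deviations from the group mean correlated between stages at r = 0.418 to 0.808 for the clones and r = -0.0051 to 0.012 for R1 and R2, across 49960 pieces. Replicates are clones, or bulk populations that the labels number only, so p-values measure the spread between these. Intervals cover counting error only. On simulated counts, with 200 pieces changed, edgeR recovered 100%, 98% and 98% of 4-fold changes in odds and 17%, 6% and 28% of 2-fold changes at bulk Knockdown, bulk Recovery and clone Recovery. The simulated noise was set rather than fitted, and far more pieces were called in the data. These shares therefore need not hold for the data. Python 3.11.15, numpy 2.4.6, pandas 2.3.3 and scipy 1.17.1 were used. Alternatives were piece length, read minimum, Baseline requirement, scale, CpG class, block, fit and leaving out each population.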

Additional observations from a re-analysis of the deposited data

Results flagged for a closer look

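mC fell at Knockdown in all 5 populations, but in 2 comparisons the difference in points between the changes of survivors and of lost HMDs had opposite signs in clones and bulk populations. At solo-WCGW CpGs the difference in change was positive in the clones, at 4.47 points in Cl.3, 4.04 in Cl.6 and 0.244 in Cl.9, and negative in the bulk populations, at -3.74 in R1 and -3.88 in R2, which puts the mean of the clones 6.73 points above that of bulk. At coding promoters the difference was 5.95, 7.22 and 8.65 points in the clones and -0.436 and -0.743 in bulk, 7.86 points apart. As a share of Baseline, bulk survivors kept more than lost HMDs in both cases, 48.0% against 43.4% at solo-WCGW CpGs and 50.2% against 47.4% at promoters, so the bulk signs in points turn on that scale. The difference between clones and bulk was not tested in either case. The values of Cl.3 and Cl.6, and with them both gaps between means, come from the contrast that chose the members, which favours a positive sign. Of the clones only Cl.9 had a Knockdown list that the rule did not read, though the rule read its Baseline list. The difference in Cl.9 was 0.244 points beside a bulk mean of -3.81 at solo-WCGW CpGs and 8.65 beside -0.59 at promoters. The shRNA target and the use of clones cannot be told apart. Promoters held 0.326% of the survivor length.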

How the results depend on the processing

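Of 141 alternatives, 109 were classed as the same, 6 gave fewer calls, 22 moved an untested value and 4 turned the sign. For permutation results, none of which could pass 0.05, the same meant only the same sign. For counts of calls it meant within 1.5 times, and for changes in Cl.9 within counting error. Some of the 6 had fewer calls only because fewer pieces reached 20 kb. The 109 did not all keep the size, since the bulk difference at Knockdown, 3.03 ± 0.11 points, was 0.834 at low-density CpGs, 4.91 at high-density CpGs and 7.22 with matched Baseline. The 4 were the log odds scale, which gave survivors minus lost HMDs as -0.325 at Knockdown in Cl.9, -0.617 in bulk, -0.0814 at Recovery of the clones and -0.0389 in bulk. The Cl.9 difference at Knockdown, 8.91 points with no replicate, moved to 9.06 (pieces of 1 kb or more), 8.67 (20 kb), 8.64 and 7.73 (at least 5 and 10 reads per CpG), 9.17 (mean over CpGs), 8.72 (HMD also in R1 and R2 at Baseline), 6.80 (all other HMD as comparison), 6.67 and 9.75 (low- and high-density CpGs) and, as alternatives chosen after seeing the data, 9.35 and 8.66 (inside and outside coding genes) and 10.7 points or 0.363 log odds (matched Baseline).
The change of Cl.9 survivors at Knockdown, -27.4 points, was -27.3 with 20-kb pieces, -28.1 and -29.6 with at least 5 and 10 reads, and -27.1 as a mean over CpGs. The preference for isolated CpGs in Cl.9 was 0.542 with at least 10 reads, 0.507 with a spacing limit of 32 bp and 0.587 at highly methylated CpGs, and in bulk 0.207 with 32 bp. With 20-kb pieces there were 4003 survivors, of which 4003 were called at bulk Knockdown and 4002 at Recovery of the clones. Over all pieces of that length the counts were 22046 of 22046 and 22042 of 22047. With all 15 libraries in 1 fit 0 survivors were called at bulk Recovery (174 at an unadjusted p under 0.05), and 0 of all 49908 pieces. limma, run within the bulk libraries only, called 4100 survivors and 20699 of all 49929 pieces. The cause of this difference between fits was not tested.
Without 1 population at a time, the bulk difference was 2.95 to 3.11 points at Knockdown and 0.630 to 0.692 at Recovery, and that of the clones at Recovery 4.94 to 7.62. The bulk survivors changed by -40.2 to -39.0 points at Knockdown and -0.824 to -0.801 at Recovery, and those of the clones by -8.58 to -4.56. At Recovery of the clones edgeR called 25 survivors without Cl.6, 8440 without Cl.9 and 8505 without Cl.3. Of all pieces it called 231 of 49923, 49642 of 49917 and 49860 of 49927. Without R1 or R2 only 1 bulk population was left, so calls are not given. The median log2 odds ratio of survivors was then -4.25 and -4.17 at bulk Knockdown, beside -3.76 and -3.69 over all pieces. Without the population block, survivors called were 8515, 4212 and 8284, beside 49929, 25870 and 48789 of all pieces. The block thus changed no count of calls by over 1.5 times, and the differences in points keep their means. With 2 or 3 populations no permutation could pass 0.05, and depth limits single CpGs and short pieces rather than the sums.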
